A study of Mus musculus with 24 samples.

Results

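The choroid plexus genes examined here are 10 genes chosen as transcripts of the choroid plexus epithelium: Ttr, Folr1, Clic6, Kl, Kcnj13, Prlr, Otx2, Aqp1, F5 and Sostdc1. They were found by their single gene symbol in the platform's annotation, out of 17097 genes with such a probe set, and 9 of the 10 were measured. Prlr, the prolactin receptor, had no probe set under its symbol alone and is not analysed here. All 9 measured genes passed the filter on dim probe sets, which used the mean over all 24 tumours. RNA came from 24 tumours cut from the cortex of mice, each on its own single-colour array. The cells each tumour grew from expressed 1 class gene, giving 6 tumours of RAB3A, 9 of BC74C and 9 of ZNF668. How the genes were introduced, which cells received them, and the strain and age of the mice are not given in the sources used here, and there is no normal cortex among the groups. BC74C is written as the labels have it and is not an approved symbol. A tumour is named by its class gene and a replicate number in deposit order. A second label calls 4 tumours HGG, an abbreviation not spelled out, 5 TUMOR, 4 UNKNOWN and 11 ependymoma.

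The choroid plexus is a sheet of secretory epithelium in the brain ventricles that makes cerebrospinal fluid and moves hormones, vitamins and ions between blood and fluid. It develops from the dorsal midline of the neural tube next to the ependyma, and its epithelial cells carry tufts of cilia. Foxj1 is the transcription factor that directs the building of motile cilia in ependymal and other multiciliated cells. In whole-tumour RNA, fewer cells of a type and less RNA per cell cannot be told apart.

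Promoters are shown first for 3 members that were highest in the same pair of tumours, with the 250 bases before a transcription start from the RefSeq table of build GRCm38.p6. That table held 11 start sites for 6 members, and those of Kl and Kcnj13 and the third of the 4 of Otx2 are given here. That Otx2 site was chosen after the motif search, as the 1 site of the 11 with a TAATCC match. The motifs searched, on both strands, were TAATCC, the letters that Otx-type homeodomains bind, TGTTTNC, the forkhead letters, TATAAA, the TATA box, and CCAAT, the CCAAT box. No searched motif overlapped another in these 3 sequences. Capitals mark the matches.
Kl, chr5:150952357-150952606, plus strand: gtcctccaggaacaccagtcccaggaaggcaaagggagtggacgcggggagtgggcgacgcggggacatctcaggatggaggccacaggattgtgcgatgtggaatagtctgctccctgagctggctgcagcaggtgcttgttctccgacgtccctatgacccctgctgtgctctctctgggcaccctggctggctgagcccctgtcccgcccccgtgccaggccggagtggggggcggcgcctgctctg
Kcnj13, chr1:87394730-87394979, minus strand: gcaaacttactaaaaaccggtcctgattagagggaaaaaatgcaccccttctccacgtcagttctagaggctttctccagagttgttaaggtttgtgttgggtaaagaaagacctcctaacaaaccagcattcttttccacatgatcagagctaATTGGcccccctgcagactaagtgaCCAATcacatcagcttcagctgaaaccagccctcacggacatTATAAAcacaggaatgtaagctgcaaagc
Otx2, chr14:48665110-48665359, minus strand: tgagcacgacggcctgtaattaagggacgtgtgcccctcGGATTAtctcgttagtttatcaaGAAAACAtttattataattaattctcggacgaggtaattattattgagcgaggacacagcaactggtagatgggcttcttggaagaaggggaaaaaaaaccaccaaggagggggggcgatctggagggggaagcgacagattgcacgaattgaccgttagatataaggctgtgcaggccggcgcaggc
The Kl window held none of the 4 motifs. The Kcnj13 window held a TATA box beginning 29 bases before the start and a CCAAT box on each strand, beginning 71 and 96 bases before it. The Otx2 window held an Otx-type match at 211 and a forkhead match at 188 bases before the start, both on the other strand. The remaining Otx2 sites had 0 TAATCC matches. The first held a forkhead match at 8 and a TATA box at 192 bases before its start. The second held a forkhead match at 144 and a CCAAT box at 70, and the fourth none of the motifs. The windows of the first and second sites overlap, and their forkhead matches are the same letters of the genome. Of 32851 promoters of this length in the table, 6.25% held TAATCC, 17.8% TGTTTNC, 12.4% TATAAA and 33.8% CCAAT. A match is a string of letters and not a measured binding site.

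A pair of tumours, RAB3A 5 (labelled UNKNOWN) and BC74C 2 (labelled ependymoma), held most of the choroid plexus genes at high levels. A gene is called high in a tumour when its log2 value lay at least 1 above its own median over the 24 tumours. By that measure 8 of the 9 members were high in RAB3A 5, where 7.44% of all 17097 genes were high, and 9 of 9 in BC74C 2, where 4.87% of all genes were high. In both tumours at once 8 members were high, 88.9% of them, beside 1.52% of all genes. The pair were the 2 highest of the 24 tumours for 5 members, Ttr, Folr1, Kl, Kcnj13 and Otx2, beside 1.09% of all genes. The median difference of the members from their own medians was 3.07 in RAB3A 5 and 2.87 in BC74C 2. It was 1.03 in ZNF668 8 and between -0.73 and 0.45 in the other 21. The pair differ in class gene, tumour label and title prefix (mmr for RAB3A 5, elw for BC74C 2). These counts describe single tumours and carry no test.

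**Figure D1:**
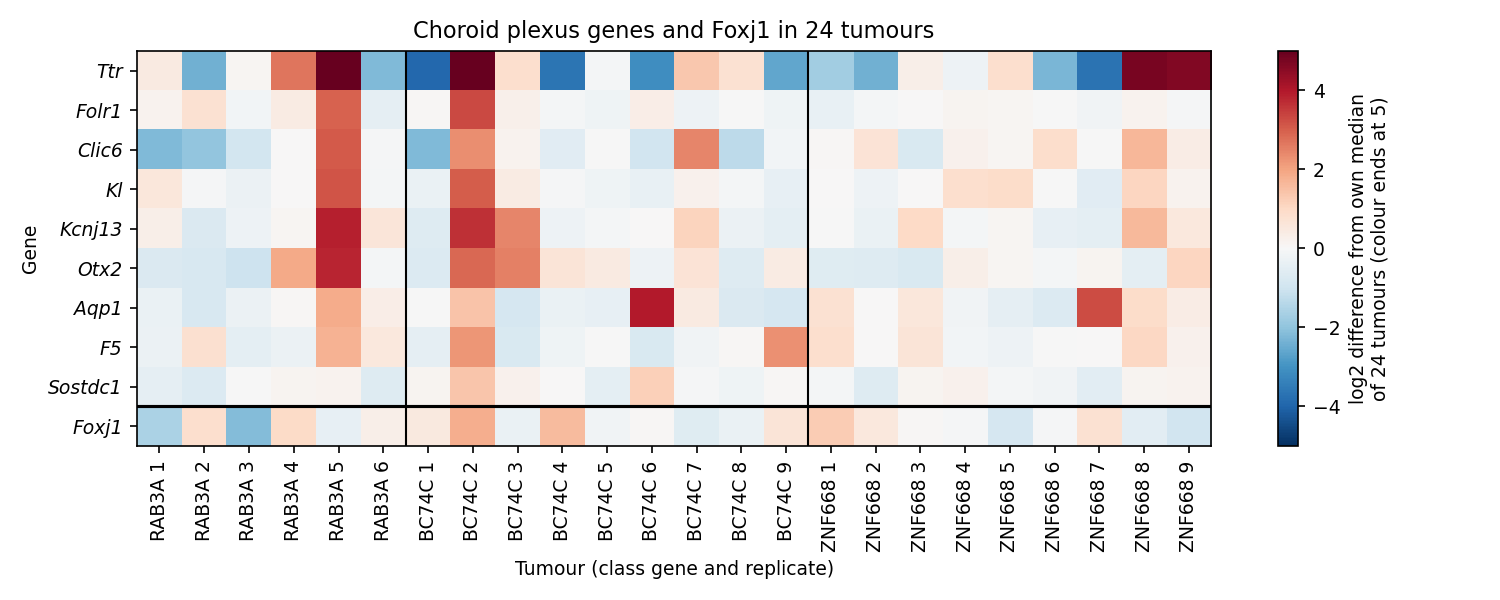
Log2 difference of each measured choroid plexus gene and of Foxj1 from its own median over 24 tumours (colour, ending at 5 in each direction), with tumours by class gene along the horizontal axis. The columns of RAB3A 5 and BC74C 2 are red for nearly every choroid plexus gene, whereas Foxj1 was 1.81 above its median in BC74C 2 and -0.39 from it in RAB3A 5.

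Folr1 and Kl set this pair apart from the rest most cleanly. Folr1, the folate receptor that carries folate into cerebrospinal fluid, had log2 values of 6.60 in RAB3A 5 and 6.93 in BC74C 2, and between 3.18 and 4.39 in the other 22 tumours. Kl, which encodes Klotho, a co-receptor for the hormone FGF23 that choroid plexus and kidney make in quantity, had 6.66 in RAB3A 5 and 6.55 in BC74C 2, and between 2.95 and 4.60 in the other 22. The empty stretch below the pair took up 58.7% of the whole range for Folr1 and 52.5% for Kl. A second Kl probe set lay between 2.99 and 3.60 in all 24 tumours and did not show the difference. Folr1, Kl and Otx2 passed the filter on dim probe sets by their mean over all 24 tumours, the pair included. Their medians over the other 22 were 3.615, 3.48 and 3.58, below the filter value of 3.76.

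Kcnj13 and Otx2 were also highest in these tumours, with others between them and the bulk. Kcnj13, a potassium channel of the apical membrane, had 7.78 in RAB3A 5 and 7.53 in BC74C 2, and at most 6.33 elsewhere, in BC74C 3, with a median of 3.83 over the other 22. Otx2, a homeodomain factor that choroid plexus needs for its formation and upkeep, had 7.50 in RAB3A 5 and 6.56 in BC74C 2, followed by 6.20 in BC74C 3, 5.58 in RAB3A 4 and 4.76 in ZNF668 9. The remaining Otx2 values did not exceed 4.38, so the gene was high in 5 tumours of all 3 class genes.

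Ttr, the transthyretin carrier of thyroid hormone and retinol that choroid plexus secretes in bulk, varied most. It had 12.89 in RAB3A 5 and 13.13 in BC74C 2, then 11.88 in ZNF668 8, 11.74 in ZNF668 9, 9.81 in RAB3A 4 and 8.46 in BC74C 7. The lowest value was 3.20, in BC74C 1, and the median 7.12, so Ttr spread over 9.94 log2 units with no wide empty stretch. Its main probe set is of a type that may bind related sequences too, and the second probe set gave the same 5 leading tumours, with 12.69 in RAB3A 5, 12.62 in BC74C 2, 11.03 in ZNF668 8, 10.54 in ZNF668 9 and 8.79 in RAB3A 4. Ttr alone did not set the pair apart, since ZNF668 8 and ZNF668 9 came close behind.

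The other members had leading tumours of their own. Clic6, a chloride intracellular channel protein, had 8.94 in RAB3A 5 and 8.18 in BC74C 2, with 8.32 in BC74C 7 between them and 7.52 in ZNF668 8. Its second probe set had 7.07, 6.98, 6.93 and 6.02 in the same 4 tumours. F5, coagulation factor V, had 6.18 in RAB3A 5 and 6.63 in BC74C 2, beside 6.72 in BC74C 9, and its second probe set was highest in the same 3 tumours. Aqp1, a water channel of the apical membrane, was highest in neither of the pair: it had 5.79 in RAB3A 5 and 5.36 in BC74C 2, against 7.89 in BC74C 6 and 7.19 in ZNF668 7, tumours where Ttr was 4.02 and 3.42. Sostdc1, a secreted antagonist of BMP and Wnt signals, had 4.39 in RAB3A 5, 0.19 above its median, and 5.60 in BC74C 2, followed by 5.39 in BC74C 6. Its second probe set had 4.77 in RAB3A 5, against a median of 3.86, and 5.88 in BC74C 2. That probe set had 5.69 in BC74C 6 and 4.98 in BC74C 9.

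Of the remaining tumours, ZNF668 8 came next with 5 members high (Ttr, Clic6, Kl, Kcnj13 and F5), where 3.91% of all genes were high. In BC74C 7 (5.81% of all genes) there were 3, namely Ttr, Clic6 and Kcnj13. Both Ttr and Otx2 were high in RAB3A 4 (5.54%) and ZNF668 9 (8.82%), Kcnj13 and Otx2 in BC74C 3 (7.02%), and Aqp1 and Sostdc1 in BC74C 6 (3.16%). BC74C 9 (3.49%) had F5 alone and ZNF668 7 (3.71%) Aqp1 alone. In the other 14 tumours 0 members were high, and 3.18% of all gene values were. The median Pearson's r over the 36 pairwise relations of the members was 0.498 across 24 tumours. Across the 22 without RAB3A 5 and BC74C 2 it was 0.116, with a range of -0.35 to 0.62. The highest of these were Ttr with Kl (0.62) and Ttr with Kcnj13 (0.60). The pair was picked by these same values, so leaving it out would tend to lower r. No conclusion is drawn from the fall, and the values are a description since the genes share arrays.

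A wider list of 53 choroid plexus genes, 50 of them measured, had its largest numbers of high genes in the same pair. Of the 50, 40 passed the filter on dim probe sets, and the counts here use all 50. In RAB3A 5 and in BC74C 2 alike 23 of the 50 (46.0%) were high, against 0 to 9 in the other 22 tumours, with a median of 4. In both at once 16 were high, 32.0% of the list beside the 1.52% of all genes. For 7 the pair were the 2 highest tumours: Kcne2, Slc4a5, Trpv4, Trpm3, Calml4, Prr32 and Lbp. Kcne2, Slc4a5, Trpm3 and Prr32 had medians of 3.30, 3.56, 3.40 and 3.36 over the other 22 tumours, below the filter value. Trpv4, Calml4 and Lbp had medians of 4.52, 4.89 and 6.09 there, above it. Kcne2, a potassium channel subunit of the apical membrane, had 6.28 in RAB3A 5 and 5.99 in BC74C 2, against 3.03 to 5.05 in the other 22. Slc4a5, a sodium bicarbonate cotransporter, had 5.55 in RAB3A 5 and 5.81 in BC74C 2, against at most 4.39. Trpm3, a cation channel, had 5.46 and 5.49 in RAB3A 5 and BC74C 2, against at most 3.88 elsewhere.

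Not every gene of that list behaved so. Of the 4 with the widest range, Cldn2, the claudin of leaky tight junctions, had 5.43 in RAB3A 5 and 6.31 in BC74C 2 but 11.57 in RAB3A 2. Htr2c, a serotonin receptor that neurons also express, had 9.10 in RAB3A 5 and 8.39 in BC74C 2, within the 3.08 to 10.89 of the others. Vat1l had 8.30 in RAB3A 5 and 6.56 in BC74C 2, and Sulf1, a heparan sulfatase, 8.71 and 10.51, and both reached higher values in other tumours. Igfbp2 and Wnt5a were lowest of all tumours in RAB3A 5, at 8.94 and 6.11, while BC74C 2 had 12.69 and 9.87.

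**Figure D2:**
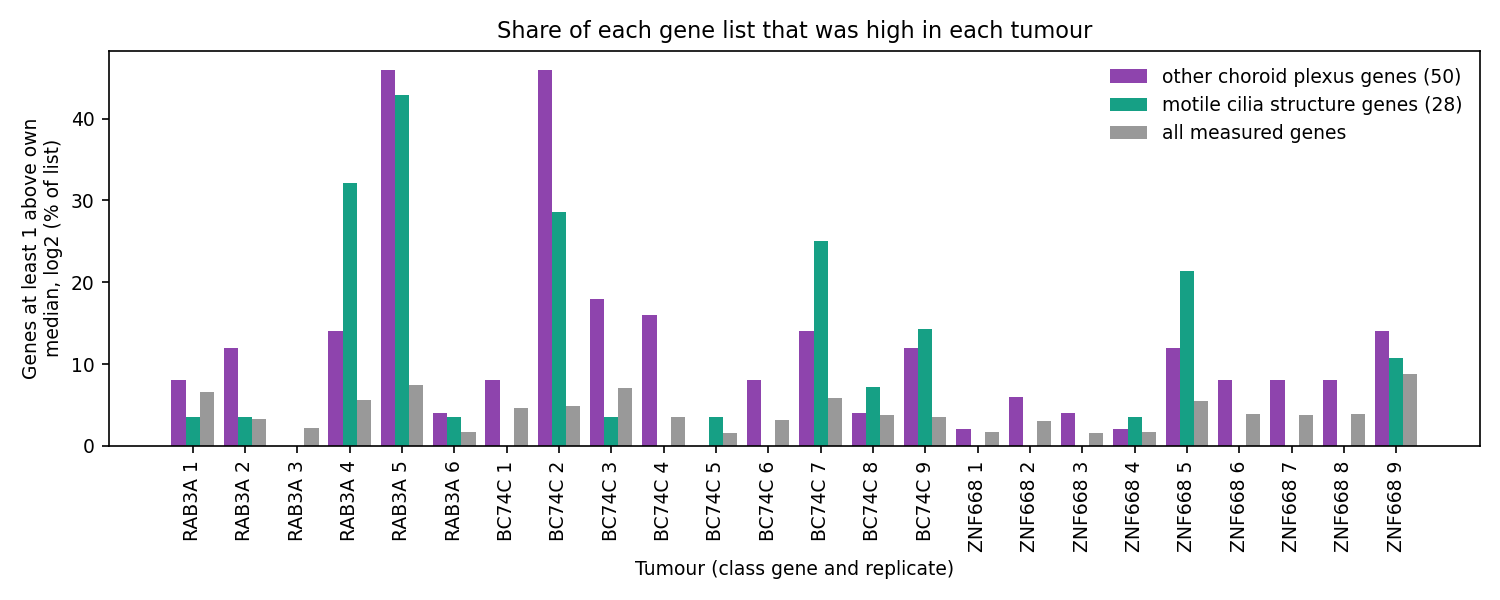
Share of 50 other choroid plexus genes, 28 motile cilia genes and all 17097 measured genes (vertical axis, percent) with a log2 value at least 1 above the own median, in each tumour (horizontal axis). The choroid plexus share is 46.0% in RAB3A 5 and in BC74C 2 and at most 9 of 50 genes elsewhere, and the cilia share is highest in RAB3A 5 at 42.9%, followed by 32.1% in RAB3A 4, 28.6% in BC74C 2, 7 of 28 genes in BC74C 7 and 21.4% in ZNF668 5.

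Other tissues that make some of these transcripts were checked by their own markers. Hepatocytes make Ttr and F5, and retinal pigment epithelium makes Ttr, Otx2 and Kcnj13. Of 9 measured hepatocyte genes 0 passed the filter on dim probe sets, and 1 was high in RAB3A 5 and 0 in BC74C 2, against 0 to 1 in the other 22 tumours. The 1 was Serpina1a, an alpha-1-antitrypsin gene, at 4.60 in RAB3A 5 and 2.81 in BC74C 2, against at most 3.35 elsewhere. Apoa1 and Apoc3, apolipoproteins with the highest mean and widest range of the list, were 3.65 and 3.67 in RAB3A 5 and 3.12 and 3.52 in BC74C 2, against at most 4.97 and 4.98. Alb, serum albumin, was 3.19 in RAB3A 5 and 3.23 in BC74C 2 and at most 3.85 elsewhere. Of 13 measured genes of retina and its pigment epithelium, 0 were high in RAB3A 5 and 0 in BC74C 2, against 0 to 1 elsewhere. Mitf, a transcription factor of pigment cells and the gene of that list with the highest mean, was 7.13 in RAB3A 5 and 8.16 in BC74C 2, its highest value, against at most 7.94. Rlbp1 and Best1, with the widest ranges, were 4.79 and 4.90 in RAB3A 5 and 4.69 and 4.91 in BC74C 2, within the range of the other 22. Rpe65, the retinoid isomerase, was 3.30 in RAB3A 5 and 3.46 in BC74C 2. Of 12 genes of the cortical hem and dorsal midline, from which choroid plexus forms, 4 were high in RAB3A 5 and 2 in BC74C 2, against 0 to 3 in the other 22 tumours, so RAB3A 5 had the most. In both of the pair 0 of the 12 were high, beside 1.52% of all genes.

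Among markers of other cell types, fibroblast genes were high mainly in RAB3A 5, and Mrc1 and genes of MHC class II presentation in both tumours. Of 13 fibroblast genes of meninges and stroma, 8 were high in RAB3A 5 and 4 in BC74C 2, against 0 to 6 in the other 22 tumours, with 6 in RAB3A 6 and 5 in BC74C 3. The median difference of that list from its own medians was 1.19 in RAB3A 5 and 0.08 in BC74C 2. Dcn, the proteoglycan decorin, had 10.94 in RAB3A 5 and 8.78 in BC74C 2, against at most 9.75 elsewhere, and Col3a1, a fibrillar collagen, had 9.78 in RAB3A 5 and 8.28 in BC74C 2, against at most 9.36. RAB3A 5 was highest for both, and BC74C 2 was in place 5 for Dcn and 6 for Col3a1. Ptgds, a prostaglandin synthase with the highest mean of the list, had 12.71 in RAB3A 5, 0.45 above its median, and 11.04 in BC74C 2, at -1.23 from it. In RAB3A 5 Foxc1 and Pdgfra lay at -0.78 and -0.44 from their medians, while in BC74C 2 they lay at 1.22 and 0.32. Over a list of 8 genes of border macrophages and antigen presentation, added after values had been seen, 6 were high in RAB3A 5 and 5 in BC74C 2, against 0 to 4 elsewhere. The mean log2 level of that list was 8.65 in RAB3A 5 and 8.55 in BC74C 2, against 4.60 to 6.62. For Mrc1, a macrophage mannose receptor, and for Cd74, H2-Aa, H2-Ab1 and H2-Eb1 of MHC class II presentation, the pair were the 2 highest tumours. Cd163 and Lyve1, defining markers in that list, were 3.29 and 3.83 in RAB3A 5 and 3.80 and 3.88 in BC74C 2. They lay at -0.37 and 0.28 from their medians in RAB3A 5 and at 0.14 and 0.34 in BC74C 2, so neither was high. Pf4, of the same list, was 8.26 in RAB3A 5 and 5.18 in BC74C 2, there 0.82 above its median and not high. Of 6 general macrophage and microglia genes 0 were high in RAB3A 5 and 3 in BC74C 2, against 0 to 6 elsewhere, and of 10 endothelial genes 1 was high in RAB3A 5 and 0 in BC74C 2, against 0 to 9. Of 12 genes of mature neurons 5 were high in RAB3A 5 and 1 in BC74C 2, against 0 to 9. The part of these cells in the choroid plexus values was not tested.

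Foxj1 did not separate the same tumours. It was highest in BC74C 2 at 8.12, but 5.91 in RAB3A 5, below the median of 6.30. BC74C 4 with 7.89, ZNF668 1 with 7.58 and RAB3A 4 with 7.25 followed BC74C 2, and in BC74C 4 and ZNF668 1 0 choroid plexus members were high. The lowest Foxj1 values were 4.16 in RAB3A 3 and 4.72 in RAB3A 1. In ZNF668 8 and ZNF668 9, where Ttr was high, Foxj1 was 5.78 and 5.35.

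Relations with Foxj1 across tumours were tested for each member, 9 relations in all. For Folr1, Kl and Sostdc1 the tumours fell into separate clusters by the main probe sets. The relation was therefore taken among the 22 tumours below the gap of each gene only. In those 22 the medians of Folr1 and Kl, 3.615 and 3.48, lay below the filter value of 3.76. The relation of Otx2 was taken over all 24 tumours, where its median of 3.69 also lay below that value. No relation passed after Benjamini-Hochberg adjustment over the 9 (0 by Pearson's r and 0 by Spearman's rho at 0.05, two-sided, 100000 permutations). Pearson's r was largest for F5 at 0.38 (permutation p = 0.0676, adjusted p = 0.412; Spearman's rho 0.31, permutation p = 0.147, adjusted p = 0.34) and for Kl at -0.37 (permutation p = 0.0916, adjusted p = 0.412; rho -0.41, permutation p = 0.0574, adjusted p = 0.258). Among the 17 elw tumours below the gap Kl had an r of -0.27 (permutation p = 0.291), and no value was computed for the mmr tumours. For the other 7 members r lay between -0.26 and 0.20, and Kcnj13 had -0.0033. By ranks Kcnj13 had a rho of -0.30 (permutation p = 0.151, adjusted p = 0.34). Without the 2 tumours farthest from its median, Kcnj13 had an r of -0.31 (permutation p = 0.163). There rho was -0.43 (permutation p = 0.0462, adjusted over 6 relations 0.139), which did not pass. Within the 18 elw tumours F5 had an r of 0.57 (permutation p = 0.0151, adjusted over 6 relations 0.0905), and within the 6 mmr tumours 0.13 (exact permutation p = 0.785). Without the 2 tumours farthest from its median, F5 had an r of 0.17 (permutation p = 0.462).

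By ranks, Ttr ran opposite to Foxj1 over the 22 tumours other than RAB3A 5 and BC74C 2. Over all 24 tumours r was -0.26 (permutation p = 0.215, adjusted p = 0.645) and rho -0.45 (permutation p = 0.0304, adjusted p = 0.258). Without the 2 tumours farthest from the Ttr median, which were this pair, r was -0.54 (permutation p = 0.00914, adjusted over 6 relations 0.0548) and rho -0.63 (permutation p = 0.00234, adjusted 0.014). Within the elw tumours r was -0.05 (permutation p = 0.839) and without BC74C 2 among them -0.47 (n = 17, permutation p = 0.0579, adjusted p = 0.281; rho -0.53, permutation p = 0.0287, adjusted p = 0.172). Within the 6 mmr tumours r was -0.93 (exact permutation p = 0.0431, adjusted p = 0.258). The sign was negative in each of these sets, and the call depended on leaving out the pair.

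**Figure D3:**
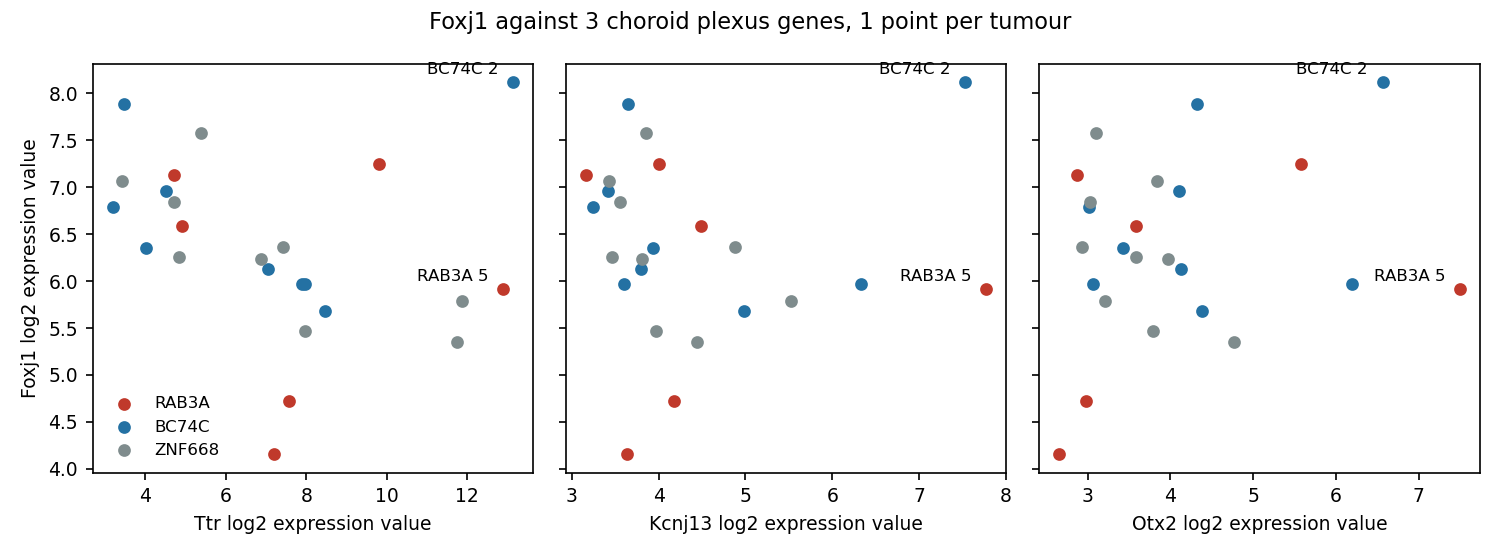
Foxj1 log2 value (vertical axis) against the log2 values of Ttr, Kcnj13 and Otx2 (horizontal axes), with 1 point per tumour coloured by class gene. BC74C 2 is high on both axes in each panel, and RAB3A 5 is high for the 3 choroid plexus genes with a Foxj1 value of 5.91.

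Genes that build the motile cilium were partly high in the pair and also in other tumours. Of 28 measured, 12 were high in RAB3A 5 and 8 in BC74C 2, against 0 to 9 in the other 22 tumours. RAB3A 4 had 9, BC74C 7 had 7 and ZNF668 5 had 6, where 5.54%, 5.81% and 5.53% of all genes were high. Both tumours of the pair had 6 of them high, 21.4% of the list beside 1.52% of all genes, named here after their values were seen: Rsph1, Rsph4a, Cfap126, Enkur, Lrrc23 and Fam183b. Cfap126, a cilium assembly protein with the widest range of the list, had 7.32 in RAB3A 5 and 8.61 in BC74C 2, above every value of the other 22 tumours, the next being RAB3A 4. Tppp3 and Rsph9, the genes of the list with the highest mean, had 8.93 and 7.11 in RAB3A 5 and 9.43 and 7.55 in BC74C 2, with other tumours as high for Tppp3.

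Of 9 measured regulators of multiciliation, 2 were high in each tumour of the pair, against 0 to 1 in the other 22. In both 0 were high, beside 1.52% of all genes. In RAB3A 5 these were Myb, a transcription factor acting early in multiciliation, at 7.16 against 4.45 in BC74C 2, and Trp73, which encodes p73, at 5.72 against 4.40. In BC74C 2 they were Foxj1 and Tekt1, a filament protein of the axoneme listed with the regulators, at 6.35 against 5.27 in RAB3A 5. Rfx2, a ciliary transcription factor, was 4.38 in RAB3A 5 and 5.48 in BC74C 2, where it lay 0.997 above its median, just short of high. Rfx3, of the same family, was 7.07 in RAB3A 5 and 8.29 in BC74C 2, with a median of 7.94.

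The genes whose pattern was most like a member's over 24 tumours, by Pearson's r among genes tested, are given as a description. For Folr1 these were Pla2g2d (0.95), Mmp12 (0.92) and Pira1 (0.90), with r of 0.36, 0.19 and 0.49 without the pair. For Kcnj13 they were Ccl8, a chemokine (0.83), Mrc1, the macrophage receptor above (0.82), and Slc13a4, a sulfate transporter of the wider list (0.81), with r of 0.51, 0.53 and 0.80 without the pair. For Otx2, Eno4 and Cfap161 had 0.85 each, and 0.74 each without the pair, and Ubxn10 had 0.84 and 0.68. Cfap161 is by its name a cilia and flagella associated gene. Relations of members with cilia genes other than Foxj1 were not tested. For Ttr, Cab39l, also of the wider list, had 0.76 and 0.65 without the pair. For Aqp1, Krt18, a keratin of simple epithelia, had 0.83 and 0.84. The nearest to Kl was Fcna (0.88, and 0.34 without the pair), to Clic6 Lmo2 (0.70 and 0.63), to F5 Gimap8 (0.74 and 0.60), to Sostdc1 Cytip (0.75 and 0.69) and to Foxj1 Hadh (0.81 and 0.78). Mmp12 and Pla2g2d, named above for Folr1, were among the 5 nearest to Kl too (0.84 each), as was H2-DMb2 (0.82). Without the pair their r with Kl was 0.10, -0.11 and 0.19. Where r was much lower without the pair, the likeness rested on those arrays.

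Class genes were compared to ask whether choroid plexus transcripts followed the gene expressed. In the test limma called 0 of 9 members, after Benjamini-Hochberg adjustment over 13218 genes, in RAB3A against ZNF668 (0.0757% of all genes called), in BC74C against ZNF668 (0.303%) and in RAB3A against BC74C (0% called). At an unadjusted p under 0.05 the members numbered 0, 0 and 1, beside 9.21%, 6.88% and 8.21% of all genes. Nothing in the labels ties each tumour to an animal of its own, so p-values measure the spread between these samples only. The number of arrays limits the precision of every comparison. The members had a median standard error of 0.64, 0.57 and 0.64 in the 3 comparisons, against 0.23, 0.20 and 0.23 over all genes.

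The levels overlapped between class genes for every member. Ttr had a lowest, median and highest value of 4.73, 7.39 and 12.89 in the 6 RAB3A tumours, 3.20, 7.04 and 13.13 in the 9 BC74C tumours and 3.42, 6.87 and 11.88 in the 9 ZNF668 tumours. Folr1 had 3.18, 3.93 and 6.60 in RAB3A, 3.41, 3.61 and 6.93 in BC74C and 3.29, 3.62 and 3.82 in ZNF668 tumours. These groups had similar medians, and 1 tumour each set the upper end in RAB3A and BC74C. Kl had 3.21, 3.49 and 6.66 in RAB3A, 3.11, 3.40 and 6.55 in BC74C and 2.95, 3.55 and 4.60 in ZNF668 tumours. Kcnj13 had 3.16, 4.09 and 7.78 in RAB3A, 3.24, 3.80 and 7.53 in BC74C and 3.42, 3.86 and 5.53 in ZNF668 tumours. Otx2 had 2.66, 3.29 and 7.50 in RAB3A, 3.02, 4.13 and 6.56 in BC74C and 2.94, 3.58 and 4.76 in ZNF668 tumours. For Otx2 the BC74C median was the highest of the 3, and the groups overlapped.

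Between RAB3A and ZNF668 tumours the median difference of the members was 0.29, beside -0.04 over all genes tested. They ranged from -0.69 for Clic6 (SE 0.70; -1.37 to -0.32 with single tumours left out) to 0.72 for Ttr (SE 1.54), and Folr1 had the smallest adjusted p, with 0.65 (SE 0.46, limma adjusted p = 0.599). Folr1 averaged 4.26 ± 1.22 in RAB3A (SD, n = 6) and 3.61 ± 0.17 in ZNF668 tumours (SD, n = 9). Between BC74C and ZNF668 the median was -0.01, beside 0.00 over all genes, from -0.50 for Ttr to 0.78 for Otx2 (SE 0.57, limma adjusted p = 0.931). Sostdc1 had the smallest adjusted p of that comparison, with 0.36 (SE 0.22, limma adjusted p = 0.864).

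Between RAB3A and BC74C the median of the members was 0.04, beside -0.04 over all genes. Sostdc1 was the 1 member with an unadjusted p under 0.05, at -0.50 (SE 0.24), and did not pass the adjustment (limma adjusted p = 0.602). It averaged 3.95 ± 0.40 in RAB3A (SD, n = 6) and 4.46 ± 0.63 in BC74C tumours (SD, n = 9). Its second probe set gave -0.40 (SE 0.39, limma unadjusted p = 0.309). Ttr had the widest interval, a difference of 1.22 with a 95% interval of -1.97 to 4.41. Foxj1 differed by -0.37 (SE 0.48) in RAB3A against ZNF668, 0.32 (SE 0.43) in BC74C against ZNF668 and -0.69 (SE 0.48, limma adjusted p = 0.72) in RAB3A against BC74C. In each of these comparisons limma also called 0 of 40 other choroid plexus genes tested (5, 6 and 7 at an unadjusted p under 0.05), 0 of 20 motile cilia genes (0 in each) and 0 of 8 regulators (1 in each).

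**Figure D4:**
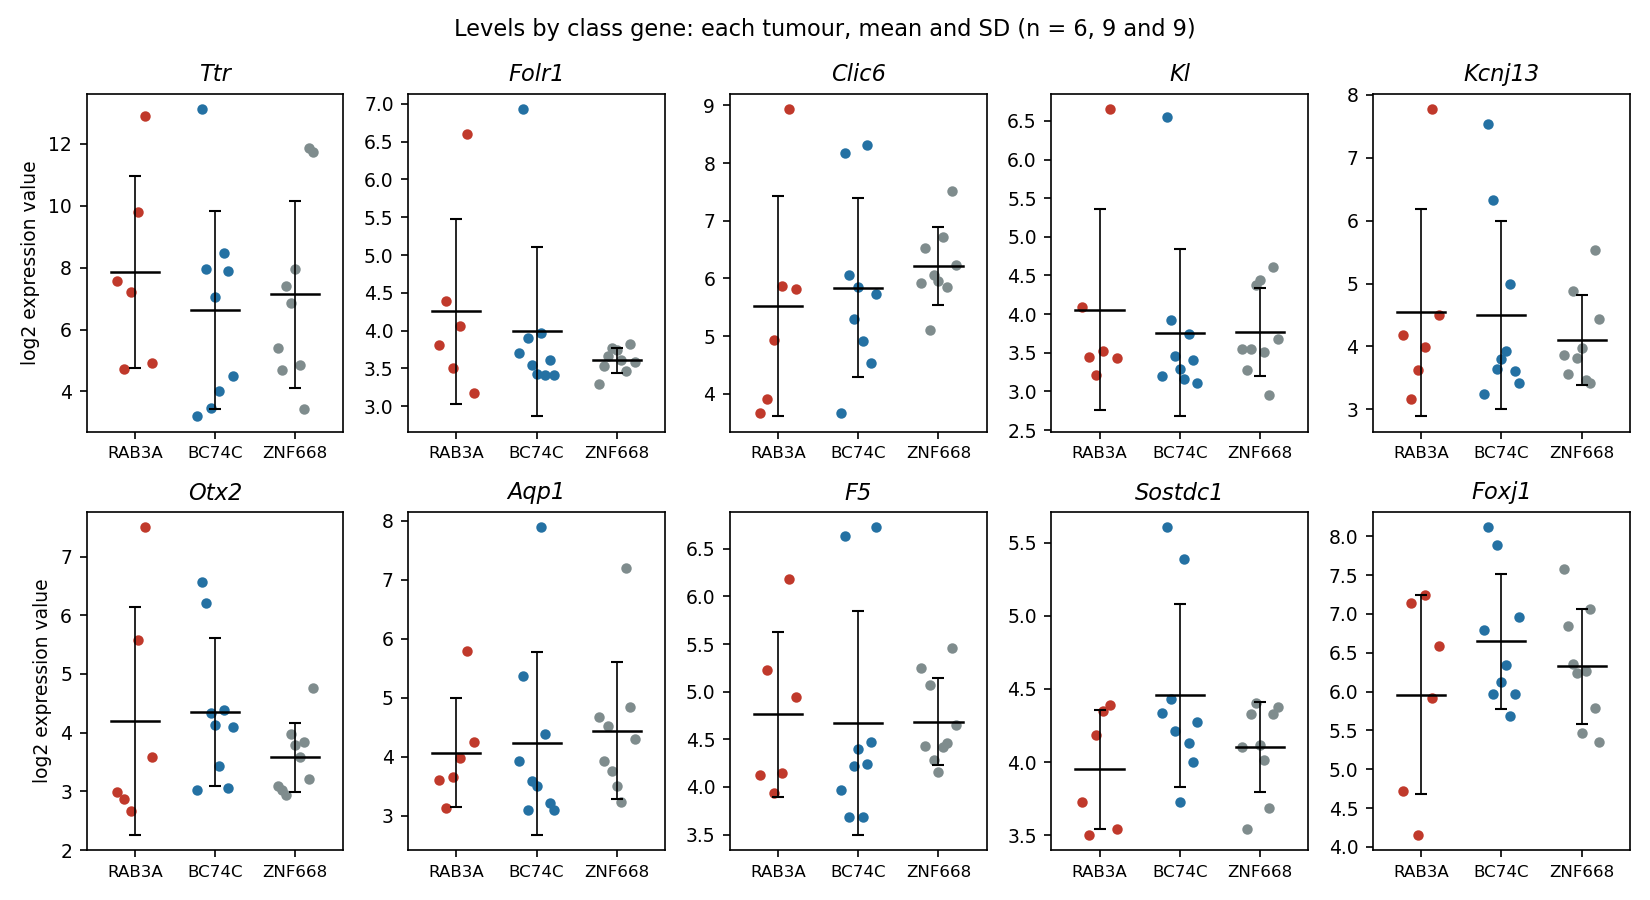
Log2 value of each measured choroid plexus gene and of Foxj1 in every tumour (points), by class gene, with the mean and SD as bars (n = 6 RAB3A, 9 BC74C and 9 ZNF668). Single points of RAB3A and BC74C lie far above the rest for Folr1 and Kl, and the groups overlap in each panel.

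Tumour labels were compared with the class gene as a covariate, HGG against ependymoma in 15 tumours. Of the members 0 of 9 were called (0% of all genes called; at an unadjusted p under 0.05, 0 members and 1.73% of all genes), with a median difference of -0.06 beside 0.00 over all genes. Clic6 had values of 5.74, 6.54, 7.52 and 8.32 in the 4 HGG tumours and a lowest, median and highest value of 3.66, 5.85 and 8.18 in the 11 ependymomas. Its difference, adjusted for class gene, was 1.10 (SE 0.70, limma adjusted p = 0.9998), and the groups overlapped. With single tumours left out it lay between 0.48 and 1.56. F5 differed by 0.88 (SE 0.53), between 0.30 and 1.34 with single tumours left out, and Foxj1 by -0.16 (SE 0.45). The highest Folr1 value among HGG tumours was 3.82 and among ependymomas 6.93, in BC74C 2; the second highest of the ependymomas was 4.39. A label of ependymoma thus went with both the highest Folr1 value and, in RAB3A 6, the lowest, 3.18.

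**Figure D5:**
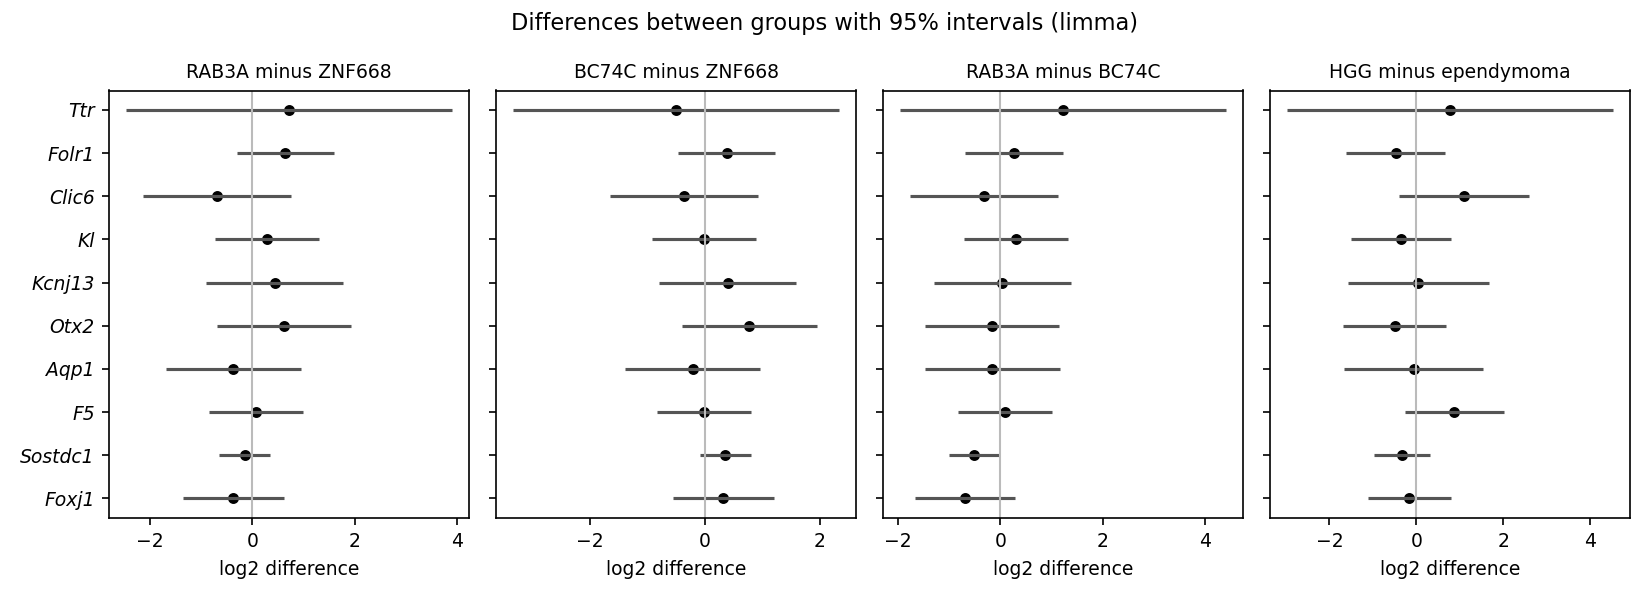
Log2 difference (horizontal axis) with its 95% interval from limma for each measured choroid plexus gene and Foxj1 in the 4 comparisons. The intervals include 0 in all panels except that of Sostdc1 in RAB3A minus BC74C, which ends just below 0 and did not pass the adjustment.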

How the data were processed

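Total RNA of 24 tumours was measured on single-colour Affymetrix arrays with biotin-labelled cRNA, per the labels' protocols. The deposited values are log2 intensities for 45141 probe sets, on a common scale made by the authors, with array medians of 4.98 to 5.20. Partek 6.6 was used, per the submitters' processing notes; background correction and normalization are not given in the sources used here, and an equalising normalization would hide a shift shared by most genes. Groups came from the class gene and tumour labels, and replicate numbers follow deposit order. No 2 arrays were near duplicates (highest r 0.9892).

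Of the probe sets, 104 controls, 551 with several symbols and 15588 with none were left out. Each of 17097 genes was represented by its probe set with the highest mean, and the 13218 above the 30th percentile (3.76) were tested. Names are RefSeq symbols for the 28689 probe sets found in a RefSeq table by the platform's Entrez identifier, and platform symbols for the rest.

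Comparisons used limma 3.58.1 in R 4.3.3 (lmFit, eBayes with intensity trend), as two-sided tests adjusted by Benjamini-Hochberg with a threshold of 0.05, and the fit was tested on simulated data. Correlations used 100000 permutations, exact for under 10 tumours, and tumours counted as separate where a gap of at least 40% of a gene's range lay between them. Promoters are RefSeq's. Named genes are the members, Foxj1, any gene of the wider choroid plexus and regulator lists, in other lists the 2 with the highest mean and the 2 with the widest range, and the 5 genes most like each member. Outside this rule, Alb, Rpe65, Cd163 and Lyve1 are named as defining markers. Serpina1a, Foxc1, Pdgfra, Pf4 and the cilia genes high in both tumours of the pair were named after their values were seen. Members, lists and tests were chosen with earlier results of these data known. Alternatives covered the title prefix, dim genes, scaling, probe sets, array weights, single tumours and the samples fitted. Figures were drawn with matplotlib 3.10.9, pandas 2.3.3 and Python 3.11.15.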

Additional observations from a re-analysis of the deposited data

Results flagged for a closer look

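Within a class gene, a tumour is listed here when its gap to the nearest other tumour, as a share of the group's range, passed Dixon's 95% critical value. Of 30 groups (9 measured choroid plexus genes and Foxj1 in 3 class genes) 7 gave such a value. The critical value is set for about 1 in 20 independent groups. These groups share the same arrays, and RAB3A 5 and BC74C 2 had already been picked out, so no comparison with chance is made. Of the 7, 3 were in RAB3A 5 and 2 in BC74C 2. Folr1 was 6.60 in RAB3A 5, where the next RAB3A tumour had 4.39, and 6.93 in BC74C 2, where the next BC74C tumour had 3.96. Kl was 6.66 in RAB3A 5, with 4.09 next, and 6.55 in BC74C 2, with 3.92 next. Kcnj13 was 7.78 in RAB3A 5, with 4.49 next. Aqp1 was 7.89 in BC74C 6, with 5.36 next, and 7.19 in ZNF668 7, with 4.85 next, and both of these tumours lacked high Ttr, Folr1 and Kl.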

How the results depend on the processing

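The count of members called remained 0 of 9 in all 4 comparisons under every alternative run. These were the title prefix as a term, elw tumours alone, no filter on dim genes, quantile normalization, median centring, all probe sets and array weights. Each fitted tumour was also left out in turn, and, added after seeing the data, RAB3A 5 and BC74C 2 together. The 3 class gene comparisons were run on only the compared tumours, and HGG against ependymoma without the class gene covariate. Of the relations with Foxj1, 1 passed, Ttr by Spearman's rho, without the 2 farthest tumours and likewise without RAB3A 5 and BC74C 2 (an alternative chosen after seeing the data), and 0 under the others; the cause was not tested. Signs turned in 6 uncalled values: F5 in HGG minus ependymoma was -0.033 in elw tumours; r with Foxj1 was 0.0082 for Kcnj13 with prefix centring and 0.18 in elw tumours; it was -0.53 for Clic6 and -0.33 for Otx2 in mmr tumours; and it was -0.018 for Clic6 without RAB3A 5 and BC74C 2. The other 288 alternative values of single genes kept their sign, and those with an adjusted p kept their side of the threshold. Correlations were judged here by Pearson's r, and Ttr by Spearman's rho crossed the threshold as given above. Ttr in RAB3A minus BC74C lay between 0.21 and 2.04 with single tumours left out, and Folr1 in RAB3A minus ZNF668 between 0.18 and 0.86. Foxj1 has 1 probe set, so its alternative was not run. No paired analysis was possible because the labels carry no replicate numbers. Signal over background could not be assessed from these values, so levels near 3 to 4 have no measured floor.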
